A study of Mus musculus with 18 samples.

Results

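Gene expression was compared between adipose tissue of wild-type (WT) mice and mouse embryonic fibroblasts (MEFs) of WT mice. The comparison rests on the 3 WT adipose arrays (replicates 1, 2 and 4) and the 3 WT MEF arrays (replicates 1, 2 and 3), which are 6 of the 18 arrays of a study of Cav1 knockout (KO) mice that also covers liver. They were picked by genotype and tissue, as the titles of the samples give them. The comparison was chosen with earlier results of these data known, among them that Cav1 is bright in adipose tissue and in MEFs. Per the labels, the fibroblasts were a primary line collected 24 hours after plating, and the adipose tissue was taken 11 hours after food was withdrawn, rinsed with cold PBS and frozen. The fat depot, the strain, the sex and the age of the mice and the passage of the cells are not given in the sources used here. Total RNA was amplified, labelled with biotin and hybridised to Illumina Mouse-6 V1 BeadChips, on which each probe gives the average signal of its beads.

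Adipose tissue consists mainly, by volume, of adipocytes. These cells take up fatty acids that lipoprotein lipase releases from circulating lipoproteins, esterify them to triglyceride in a lipid droplet, and release them again by lipolysis when food is scarce. Around the adipocytes lie capillaries, fibroblast-like progenitors, macrophages and lymphocytes. MEFs are proliferating mesenchymal cells on plastic, which lay down collagen matrix, spread on actin stress fibres and respond to serum, and they can be turned into adipocytes by hormones in culture. Both settings are rich in caveolae, the flask-shaped membrane pits that caveolin-1 builds.

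The arrays detected 29.4% to 31.1% of probes in MEFs and 32.4% to 34.6% in adipose tissue (detection p under 0.05). Correlations of normalized log2 signal were 0.973 to 0.986 between arrays of a group and 0.614 to 0.663 between the groups, and the first principal component, which separated the groups, held 92.7% of the variance. All MEF arrays lay on 1 slide and all adipose arrays on another, so tissue and slide cannot be told apart in any difference below. Nothing in the labels ties the 3 arrays of a tissue to different mice or cultures, and p-values then measure only array-to-array spread, which may be technical. In tissue RNA, more cells of a type and more RNA per cell cannot be told apart. Precision is limited by having only 3 arrays per tissue.

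Of 15936 probes tested, 11604 (72.8%) differed between the tissues at an adjusted p under 0.05. In adipose tissue 5620 probes (35.3%) were higher and 5984 (37.6%) were lower than in MEFs, and 1774 and 1503 of them by at least 4-fold. The signals of the groups did not overlap for 12117 probes (76.0%). The median difference of all probes was -0.07 on the log2 scale. Adipose RNA alone held 2081 probes that were detected on all 3 of its arrays and on 0 of 3 MEF arrays, and MEF RNA alone held 799 of the opposite kind. With the arrays centred on their medians instead of quantile normalized, 69.6% of the called probes were higher in adipose tissue, against 48.4% here, because the median of all differences moved from -0.07 to 0.53. With the neqc background 713 probes were higher and 606 lower by at least 4-fold, so the sizes of the differences below depend on the background. Folds given below as "at least" for undetected genes are bounds under the main settings only. Some fitted differences fell below them under other settings. Of 37 lists with at least 3 tested genes, 18 had a median over 1.5 times smaller with neqc, 1 had a larger one by as much, and none changed sign.

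Probes near identical gene copies, such as those of Hba-a1, Amy1, C4b and the H2 genes, may not be told apart. A gene name could be given to 4443 tested genes, of which 1403 (31.6%) were higher in adipose tissue and 1900 (42.8%) were lower, 454 (10.2%) and 469 (10.6%) of them by at least 4-fold. Their median difference was -0.24. Of these genes 362 were detected on no MEF array and 202 on no adipose array. Such genes were tested only through the tissue that detected them, which adds to the counts of that direction. Genes were read against lists of pathways and cell types, whose counts are to be set beside these shares. The plot of called genes per list shows that the lists fall along a range, from droplet and adipocyte genes, all higher in adipose tissue, to genes of DNA replication and mitosis, all lower.

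**Figure D1:**
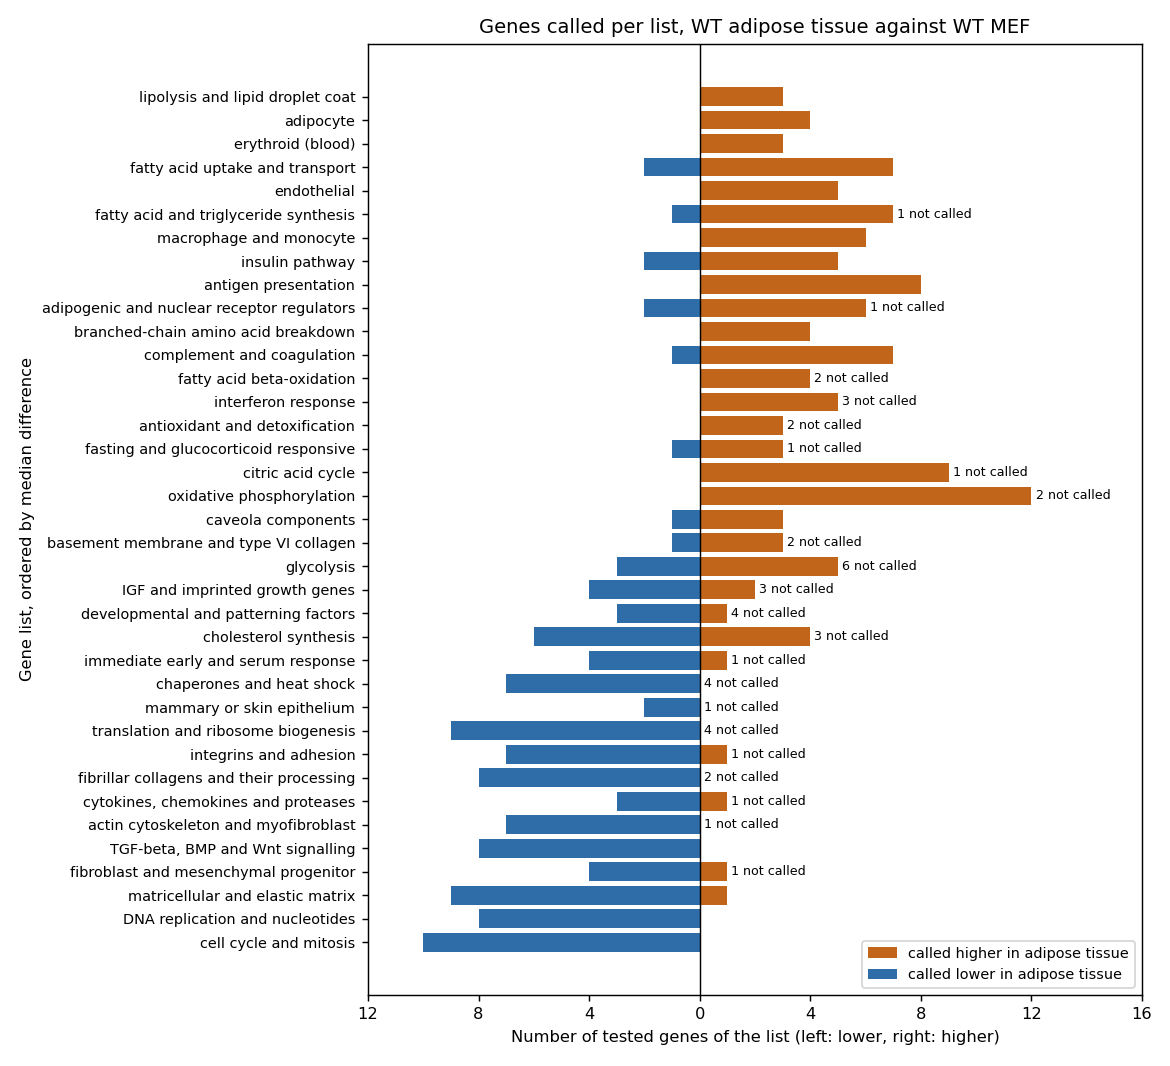
Number of tested genes of each list that were called higher (right, orange) or lower (left, blue) in WT adipose tissue than in WT MEFs, with the number not called beside the bar and lists ordered by their median difference. All 10 tested genes of cell cycle and mitosis were lower and all 4 adipocyte markers were higher. The lists in the middle, such as glycolysis and cholesterol synthesis, held genes of both directions.

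Cav1, which encodes caveolin-1, was bright in both settings, which was known when the comparison was chosen. Its raw signal was 25664, 50304 and 40700 on the adipose arrays and 10792, 9766 and 10821 on the MEF arrays. After normalization the log2 signal was 14.37, 14.77 and 14.83 in adipose tissue and 13.92, 13.80 and 13.86 in MEFs. Every adipose array was above every MEF array, and the difference was 0.80 ± 0.17 (log2, SE, n = 3 per group), a 1.74-fold difference with limma's adjusted p = 0.00297. Of 4 tested caveola genes 3 were higher in adipose tissue and 1 was lower, with a median of 0.79. Ehd4, which encodes an ATPase of the EHD family found at caveolar necks, differed by 0.79 ± 0.19, and Pacsin3, which encodes a membrane-bending F-BAR protein, by 0.89 ± 0.23. Cavin1, which encodes the coat protein that caveolae need together with caveolin-1, went the other way at -1.69 ± 0.34 (limma's adjusted p = 0.00182). Its log2 signal was 4.93, 5.92 and 6.37 in adipose tissue, where 2 of 3 arrays detected it, and 7.34, 7.26 and 7.68 in MEFs. Its raw signal overlapped between the groups, at 168.7, 262.8 and 280.4 in adipose tissue and 209.5, 192.4 and 246.6 in MEFs. The median of the negative controls was 166.8 to 183.6 on the adipose arrays and 108.6 to 114.4 on the MEF arrays. Over all settings tried the Cavin1 difference ranged from -1.94 to -0.22, so its size is not settled. The Cavin1 probe was therefore dim in adipose tissue while the Cav1 probe was bright there, but levels of different probes cannot be compared.

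Genes that define adipocytes were among the largest differences of the comparison. All 4 tested adipocyte markers (Car3, Lpl, Pnpla2 and Fabp4) were higher in adipose tissue, by a median of 5.75, so the tissue label fits its markers. Car3 encodes carbonic anhydrase 3, one of the most abundant adipocyte proteins in rodents. Its log2 signal was 15.33, 15.09 and 15.18 in adipose tissue and 4.66, 4.93 and 5.05 in MEFs, where no array detected it, which puts it at least 628-fold higher (limma's adjusted p = 7.85e-09). Aoc3, the adipocyte surface amine oxidase also called VAP-1, gave 14.46, 14.54 and 14.89 against 5.17, 4.93 and 4.89 and was at least 423-fold higher. Neither gene was above background on any fibroblast array.

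The genes of the lipid droplet and of lipolysis were all higher, 3 of 3 tested, with a median of 5.90. Plin4, which encodes a perilipin of small nascent droplets, had a log2 signal of 15.16, 15.47 and 15.33 in adipose tissue and 4.92, 6.03 and 5.72 in MEFs, a difference of 9.76 ± 0.28. Pnpla2, the adipose triglyceride lipase that starts lipolysis, was detected on every array, at 15.28, 14.89 and 15.16 against 9.43, 9.78 and 9.98, and differed by 5.38 ± 0.20. Aqp7, the channel through which adipocytes release glycerol, gave 11.00, 11.07 and 11.14 against 5.20, 5.20 and 5.10, was detected on no MEF array and was at least 35.9-fold higher. A second, dimmer Aqp7 probe was detected on 1 MEF array and differed by 3.26, so the size of the difference depends on the probe.

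Uptake of fatty acids was represented by 9 tested genes, 7 higher and 2 lower in adipose tissue, with a median of 4.22. Lpl, the lipoprotein lipase itself, had a log2 signal of 15.20, 15 and 15.22 in adipose tissue and 9.49, 8.70 and 8.84 in MEFs (difference 6.13 ± 0.22), and a second, dim probe, detected on no MEF array, was higher as well. Gpihbp1, which carries that lipase across capillary endothelium, differed by 6.36 ± 0.27. Acsl1, the acyl-CoA synthetase that traps fatty acids in adipocytes, gave 13.62, 13.74 and 13.62 against 5.89, 6.58 and 6.43 and differed by 7.36 ± 0.20. Cd36, the fatty acid translocase, was detected on no MEF array and was at least 7.94-fold higher. Fabp4, the adipocyte fatty acid binding protein, differed by 4.22 ± 0.21, and Angptl4, a fasting-induced inhibitor of lipoprotein lipase, by 5.13 ± 0.24. The 2 members that went the other way were Fabp3, the fatty acid binding protein of heart and muscle, at -3.29 ± 0.30 and the arachidonate-preferring synthetase gene Acsl4 at -1.41 ± 0.22. Both lie outside the naming rule and were named after their values were seen.

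Of 9 tested genes of fatty acid and triglyceride synthesis 7 were higher in adipose tissue, 1 was lower and 1 was not called, with a median of 3.89. Pck1, whose enzyme makes glycerol phosphate for re-esterification in fasted fat, had a log2 signal of 12.82, 13.51 and 12.36 in adipose tissue against 4.93, 4.65 and 4.82 in MEFs. No MEF array detected it, and it was at least 128-fold higher (limma's adjusted p = 1.19e-07). Acaca, the acetyl-CoA carboxylase that commits carbon to fatty acids, was bright in both settings at 15.18, 14.84 and 14.78 and 11.04, 11.03 and 11.06, and differed by 3.89 ± 0.16. Acss2, which makes acetyl-CoA from acetate, differed by 6.14 ± 0.33, Elovl6, the elongase of saturated fatty acids, by 4.06 ± 0.20, and Mogat1, a monoacylglycerol acyltransferase, was at least 18.7-fold higher. Fads2, the delta-6 desaturase that starts the synthesis of long polyunsaturated fatty acids, was the member lower in adipose tissue, at 5.98, 5.67 and 5.45 against 8.48, 8.23 and 8.19 (difference -2.60 ± 0.19). Acaca and Elovl6, of saturated fat synthesis, and Fads2, of polyunsaturated fat synthesis, thus had opposite directions on these arrays. Fads2 was dim in adipose tissue, where 2 of 3 arrays detected it. Over all settings tried its difference ranged from -2.8 to -0.52, so its size is not settled. Fads1, another gene of the list, did not reach the detection needed to be tested.

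**Figure D2:**
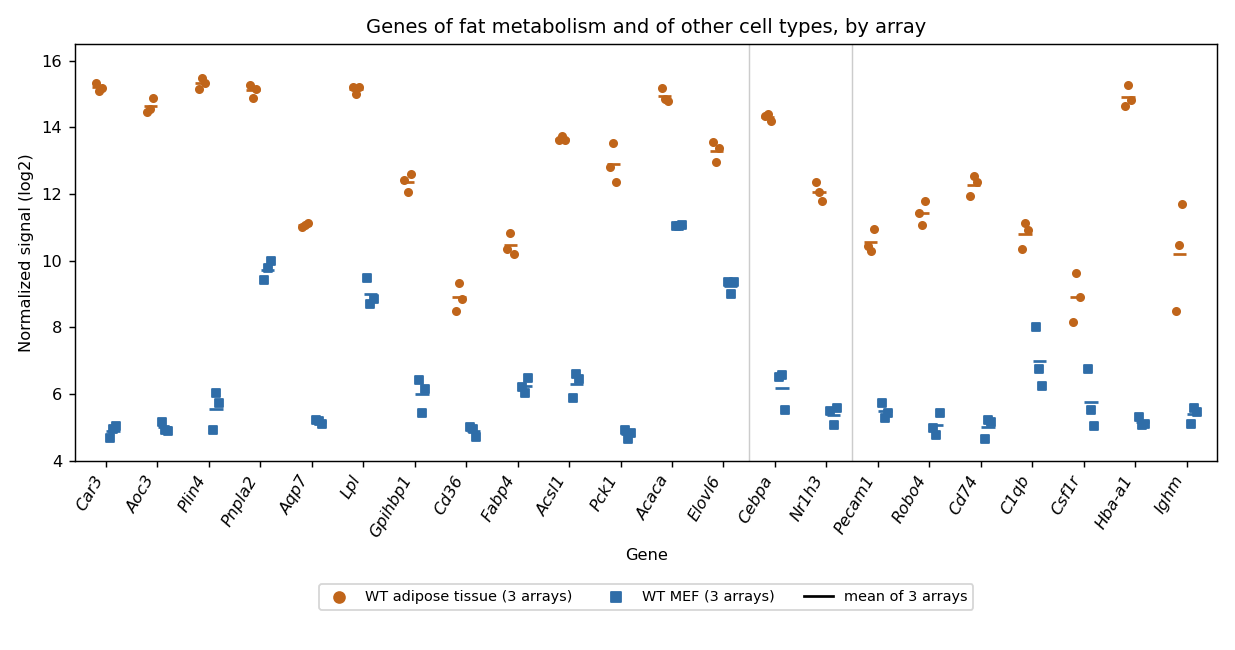
Normalized log2 signal of 22 genes on each WT adipose array (circles) and each WT MEF array (squares), with horizontal lines at the mean of 3 arrays and grey lines between fat metabolism, adipogenic regulators and markers of other cell types. Adipose arrays lie above MEF arrays for every gene shown. Several MEF squares, such as those of Car3, Aoc3 and Hba-a1, lie near 5, the level of probes that were not detected.

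Most regulators of adipocyte identity differed in the same direction. Of 9 tested genes of the list of adipogenic and nuclear receptor regulators 6 were higher in adipose tissue and 2 were lower, with a median of 2.66. Cebpa, which encodes C/EBP alpha, a factor that adipocytes need to differentiate and to stay sensitive to insulin, had a log2 signal of 14.34, 14.39 and 14.18 in adipose tissue and 6.50, 6.56 and 5.51 in MEFs (difference 8.11 ± 0.28). Nr1h3, which encodes the oxysterol receptor LXR alpha, was detected on no MEF array and was at least 71.8-fold higher. Rxra, the partner of many lipid-sensing receptors, was at least 4.04-fold higher, the thyroid hormone receptor gene Thra differed by 2.89 ± 0.19, and Rora, a nuclear receptor of metabolism and the clock, by 2.94 ± 0.16. Dlk1, which encodes preadipocyte factor 1, an inhibitor of adipogenesis, was the strongest exception. Its log2 signal was 6.19, 6.31 and 6.02 in adipose tissue and 10.80, 10.80 and 10.97 in MEFs, a difference of -4.68 ± 0.16 (limma's adjusted p = 1.07e-07). The inhibitor of the programme and the factor that carries it were thus on opposite sides.

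Cebpa has its promoter entry in RefSeq (GRCm38.p6, chr7:35119043-35119292, plus strand), shown here because the gene is the adipogenic factor with the largest difference. The 250 bases before its start are, 5′ to 3′, with the TATAAA motif in capitals:
Cebpa: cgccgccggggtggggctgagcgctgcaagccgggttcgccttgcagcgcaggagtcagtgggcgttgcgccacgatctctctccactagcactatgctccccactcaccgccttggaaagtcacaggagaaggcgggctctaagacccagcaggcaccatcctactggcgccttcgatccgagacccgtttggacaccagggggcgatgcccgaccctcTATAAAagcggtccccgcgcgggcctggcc
Among promoter windows of 250 bases before to 50 after a start, searched on both strands, TATAAA was found for 7.8% of 333 genes at least 4-fold higher in adipose tissue, 11.6% of 372 genes at least 4-fold higher in MEFs and 15.7% of all 27025 genes of the promoter table. The DR1 element, here AGGTCA repeated after 1 base with at most 1 mismatch in each copy, was found for 2.4%, 2.2% and 2.8%, and any of TTGCGCAA, TTGCACAA and TTGCATCA, letters of C/EBP sites, for 3.3%, 1.9% and 2.3%. These shares are descriptions of letters in short windows and were not tested.

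The insulin pathway followed, with 5 of 7 tested genes higher in adipose tissue and 2 lower (median 2.80). Pde3b, the phosphodiesterase through which insulin restrains lipolysis, had a log2 signal of 10.25, 10.38 and 10.45 against 5.14, 5.20 and 5.92, a difference of 4.94 ± 0.23. Foxo1, a transcription factor that insulin excludes from the nucleus, differed by 3.20 ± 0.24 and Pik3r1, the regulatory subunit of PI 3-kinase, by 2.80 ± 0.22. Igf1r, the receptor for IGF-1, and Grb10, an adaptor that inhibits the insulin and IGF-1 receptors, went the other way. Neither was detected on any adipose array, and under the main settings they were at least 3.77-fold and 2.22-fold lower there. Over the other settings tried their fitted differences came down to -0.3 and -0.23, so these bounds do not hold in general. Igf1, the ligand, was higher in adipose tissue at 11.47, 10.90 and 10.80 against 7.42, 6.66 and 6.81 (difference 4.09 ± 0.26), so ligand and receptor had opposite directions.

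Of 5 tested genes of the list of fasting and glucocorticoid responses 3 were higher, 1 was lower and 1 was not called. Besides Angptl4 these were Mt1, a metallothionein, at 1.20 ± 0.21 and Zbtb16, a glucocorticoid-induced zinc finger gene, which was detected on no MEF array and was at least 1.46-fold higher, while Fkbp4, a co-chaperone of steroid receptors, was lower at -0.84 ± 0.17 and not called with median-centred arrays. Zbtb16 did not pass without MEF WT 1 (adjusted p = 0.0801), without MEF WT 3 (0.0685), with the neqc background (0.167), with cyclic loess (0.0728) or with no filter (0.0762). With the neqc background the median of the list fell from 1.07 to 0.11. Hsd11b1, the enzyme that regenerates active glucocorticoid inside adipocytes, was among the 15 largest differences. It gave 12.95, 12.62 and 12.86 in adipose tissue against 5.74, 5.26 and 5.68 in MEFs, where no array detected it, and was at least 120-fold higher. Clock and Nr1d2, the 2 tested genes of the circadian clock, were higher by 0.72 ± 0.19 and 0.79 ± 0.23, and a second Nr1d2 probe gave 0.08 and was not called. Nr1d2 did not pass in the fits of 12 and 18 arrays (limma's adjusted p = 0.0769 and 0.0779). The hour of collection is not given in the sources used here.

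Mitochondrial genes were higher in adipose tissue as a group, with smaller differences than genes of fat storage. Of 6 tested genes of beta-oxidation 4 were higher and 2 were not called (median 1.96), of 10 genes of the citric acid cycle 9 were higher and 1 was not called (median 1.00), and of 14 genes of oxidative phosphorylation 12 were higher and 2 were not called (median 0.93). No gene of these lists was lower. With median-centred arrays their medians were 2.58, 1.55 and 1.61. Etfa, which passes electrons from fatty acid oxidation to the respiratory chain, had a log2 signal of 14.08, 13.89 and 13.94 against 11.61, 11.46 and 11.42 (difference 2.47 ± 0.15). Ogdh, the rate-controlling dehydrogenase of the cycle, differed by 3.13 ± 0.17 and Pdhb, a subunit of pyruvate dehydrogenase, by 3.12 ± 0.27. Ndufa4 and Ndufs3, named for complex I, differed by 1.22 ± 0.15 and 1.00 ± 0.15, and Cycs, which encodes cytochrome c, by 0.96 ± 0.15.

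Cox7a1, the cytochrome oxidase subunit of muscle and brown fat that also serves as a marker of brown or beige adipocytes, stood out among respiratory genes. Its log2 signal was 10.01, 9.63 and 9.52 in adipose tissue and 5.05, 5.91 and 5.50 in MEFs, where no array detected it, at least 14.1-fold higher. Prdm16, the only other named gene of the brown or beige list, did not reach the detection needed to be tested. All 4 tested genes of branched-chain amino acid breakdown were higher (median 2.57), led by Ivd, isovaleryl-CoA dehydrogenase, at 12.48, 12.52 and 11.99 against 8.29, 8.41 and 8.46 (difference 3.95 ± 0.19), and Mccc2, a subunit of methylcrotonyl-CoA carboxylase, at 3.12 ± 0.22. Of 5 tested genes of antioxidant defence 3 were higher and 2 were not called, among them the glutathione transferase genes Gstm1 and Gstm2 at 3.28 ± 0.17 and 2.92 ± 0.17 and the superoxide dismutase gene Sod1 at 1.57 ± 0.16.

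Transcripts of genes on mitochondrial DNA were read by 20 tested probes, several of which read the same gene. Of these probes 14 were higher in adipose tissue, 0 were lower and 6 were not called (median 1.27, the adjusted p by limma). Among all probes tested 35.3% were higher and 37.6% were lower. The amount of mitochondrial DNA was not measured. The probe named for COXI, a catalytic subunit of cytochrome oxidase, gave 15.30, 15.37 and 15.34 in adipose tissue and 10.14, 12.72 and 11.66 in MEFs, a difference of 3.83 ± 0.53. For ND5, a subunit of complex I, the table has 2 probes, of which the first gave 13.80, 14.09 and 13.77 against 8.83, 10.75 and 9.94 (4.04 ± 0.41), while the other, at 8.10, 5.68 and 8.16 against 6.91, 9.86 and 7.54, was not called. MEF WT 1 was the lowest MEF array for each of the 20 probes, so it lowered the MEF mean of all of them. Their differences without that array are not reported here.

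Glycolysis was mixed, with 5 of 14 tested genes higher, 3 lower and 6 not called (median 0.30), though 10 were higher and 2 lower with median-centred arrays. Pfkfb3, which makes the activator of phosphofructokinase, was the largest difference, at 14.77, 14.71 and 14.88 in adipose tissue against 9.91, 10.06 and 9.87 in MEFs (4.84 ± 0.15). Aldoa, aldolase A, was higher by 1.56 ± 0.16 and Ldhb, the heart type lactate dehydrogenase subunit, by 1.92 ± 0.22. Pgk1, phosphoglycerate kinase, was lower at 11.89, 12.04 and 11.98 against 13.67, 13.49 and 13.61 (-1.62 ± 0.15), as were Pgam1, phosphoglycerate mutase, at -1.86 ± 0.20 and Eno3, the muscle enolase, at -1.04 ± 0.20, though Eno3 was not called with median-centred arrays or in the fit of 12 arrays (adjusted p = 0.0575).

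Cholesterol synthesis was divided as well, with 4 of 13 tested genes higher in adipose tissue, 6 lower and 3 not called. The median of -0.43 turned to 0.24 with median-centred arrays, so the list as a whole has no settled direction. Idi1, the isopentenyl diphosphate isomerase, had a log2 signal of 6.19, 6.43 and 5.76 in adipose tissue against 8.74, 8.06 and 8.25 in MEFs (difference -2.22 ± 0.24). Its raw signal overlapped between the groups, at 233.7, 320.6 and 229.5 against 398.9, 264.7 and 319.1. Over all settings tried the Idi1 difference ranged from -2.4 to -0.52, so its size is not settled. Acat2, which condenses acetyl-CoA in the cytosol, was higher at 2.02 ± 0.24. Nsdhl, a sterol dehydrogenase, was higher by its brightest probe at 1.17 ± 0.24 and not called by its other 2, at -0.51 and 0.29.

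Several genes of secreted proteins were among the 15 largest differences on the adipose side. Trf, which encodes the iron carrier transferrin, had a log2 signal of 14.65, 14.50 and 14.05 in adipose tissue against 4.89, 5.07 and 4.96 in MEFs, at least 361-fold higher. Orm1, the acute-phase protein orosomucoid, gave 14.09, 14.25 and 14.47 against 5.17, 5.31 and 5.72, at least 330-fold, and Apoe, apolipoprotein E, 12.95, 13.11 and 12.90 against 5.30, 5.11 and 4.76, at least 135-fold. None of the 3 genes was detected on a MEF array. Serpina3n, a protease inhibitor of the acute phase, differed by 7.77 ± 0.38 and was detected on 1 of 3 MEF arrays, whose values were 6.6, 5.20 and 4.98. Amy1, an amylase gene, was at least 60.3-fold higher. Liver also secretes several of these proteins, and the hepatocyte list, with 2 tested genes, gave no called gene.

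Markers of vessels, blood and immune cells were higher in adipose tissue. All 5 tested endothelial genes were higher by at least 4-fold (median 3.99). Robo4, a guidance receptor of endothelium, gave 11.42, 11.06 and 11.79 against 4.98, 4.77 and 5.42 (at least 45.9-fold) and Pecam1, the adhesion molecule CD31, 10.42, 10.29 and 10.93 against 5.72, 5.27 and 5.43 (at least 25-fold). Egfl7, a secreted endothelial factor, Eng, the TGF-beta co-receptor endoglin, and Emcn, endomucin, differed by 3.99 ± 0.38, 3.11 ± 0.18 and 2.89 ± 0.18. Of these 5 genes, 3 were detected on MEF arrays as well.

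Hemoglobin transcripts were bright in adipose tissue, and all 3 tested erythroid genes were higher there (median 4.44). Hba-a1, a hemoglobin alpha chain, had a log2 signal of 14.65, 15.26 and 14.82 in adipose tissue and 5.31, 5.07 and 5.10 in MEFs, at least 515-fold higher. Hbb-b1, a beta chain, gave 9.92, 11.60 and 9.67 against 6.03, 5.45 and 6.38 (4.44 ± 0.48). Adipose WT 2 was the highest array for both chains. Hbb-b2 differed by 1.81 ± 0.57 with limma's adjusted p = 0.0187, and the adjusted p was 0.0564 without MEF WT 1, 0.0501 without MEF WT 3, 0.0553 with no filter and 0.173 with the neqc background.

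Macrophage markers were higher for 6 of 6 tested genes, with a median of 3.31. The complement component genes C1qb and C1qa, made by tissue macrophages, gave 10.33, 11.12 and 10.93 against 8.0, 6.75 and 6.24 and 9.32, 10.07 and 9.70 against 7.19, 5.91 and 5.52. Csf1r, the receptor for macrophage colony-stimulating factor, gave 8.15, 9.62 and 8.91 against 6.74, 5.52 and 5.05 (3.12 ± 0.48). In MEFs all 3 genes were highest on WT 1, and in adipose tissue all 3 were lowest on WT 1. Cd68, a lysosomal protein of macrophages, was at least 4.9-fold higher. Of the lysozyme genes, Lyz1 was at least 8.92-fold higher (not called with the neqc background, adjusted p = 0.105) and Lyz2 differed by 1.80 ± 0.44. Without MEF WT 1 all 6 genes were still called and the median was 3.84.

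Lymphocytes were represented by few named genes. Ighm, the constant region of immunoglobulin M, had a log2 signal of 8.47, 10.47 and 11.69 on the adipose arrays and 5.10, 5.58 and 5.46 on the MEF arrays, at least 19.8-fold higher (limma's adjusted p = 0.000214). The 3 adipose arrays spread over more than 3 log2 units, with WT 1 lowest, and the call ended with the neqc background (adjusted p = 0.05). Cd74, the invariant chain that guides MHC class II, gave 11.93, 12.55 and 12.37 against 4.64, 5.21 and 5.17, at least 83.3-fold higher. Cd3e, a chain of the T cell receptor complex, was dim at 6.43, 6.36 and 6.57 and at least 1.46-fold higher.

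All 8 tested genes of antigen presentation were higher in adipose tissue (median 2.69). No MEF array detected 4 of them, and the 4 detected on all 6 arrays were higher too (median 2.39). H2-Ab1, a chain of MHC class II, gave 11.52, 11.81 and 11.58 against 5.21, 5.44 and 5.23 (at least 53.2-fold), and the class I genes H2-T23 and H2-K1 differed by 4.06 ± 0.26 and 3.09 ± 0.37. Tapbp, the loading factor tapasin, and Psmb8, a subunit of the immunoproteasome, were detected on no MEF array. Of 8 tested genes of complement and coagulation 7 were higher and 1 lower (median 2.15). No MEF array detected 5 of the 8, which were tested only through the adipose arrays. Among probes detected on all 6 arrays 2 genes of this list remained, 1 higher and 1 lower (median 0.65). With the neqc background 6 were higher and the median was 0.25, and it was 0.92 without background correction. C4b was at least 8.88-fold higher by its brightest probe, and a second probe at -0.61 was not called. F13a1, the coagulation factor XIII subunit of macrophages, was at least 2.36-fold higher, and C6, a component of the membrane attack complex, at least 2.59-fold. Tfpi, the inhibitor of the tissue factor pathway, was lower at 7.09, 7.56 and 6.55 against 9.94, 9.22 and 9.54 (-2.50 ± 0.28).

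Genes of the interferon response were higher for 5 of 8 tested, with 3 not called, and here a MEF array mattered. Ifi27l2a, an interferon-induced gene that is also abundant in fat, had a log2 signal of 15.01, 14.94 and 14.40 in adipose tissue and 8.42, 5.07 and 4.91 in MEFs. MEF WT 1 was thus more than 3 log2 units above the other 2 MEF arrays, and the difference was 8.65 ± 0.82, or 9.89 without that array. The antiviral gene Oas1a gave 6.90, 7.81 and 7.60 against 7.49, 5.21 and 5.10 (1.5 ± 0.59, limma's adjusted p = 0.0448), and the signalling factor gene Irf9 gave 7.93, 8.05 and 7.95 against 8.25, 5.90 and 6.6 and was not called (1.06 ± 0.50). Oas1a did not pass without adipose WT 2, adipose WT 4, MEF WT 2 or MEF WT 3, with adjusted p from 0.109 to 0.152. It also did not pass with the neqc background (0.146), with no filter (0.115) or with a trended robust variance (0.0709). The median of the list, 1.89, was 0.24 with the neqc background and 0.84 without background correction. In both genes MEF WT 1 lay within or above the range of the adipose arrays. Without MEF WT 1 the count became 7 of 8, the median moved from 1.89 to 2.41, and Irf9 passed at 1.74 with an adjusted p of 0.000385. Irf1, a transcription factor of the response, was higher at 2.28 ± 0.22, Irf7 was at least 3.19-fold higher, and the GTPase gene Igtp differed by 2.86 ± 0.48.

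Further lists of other cell types held few tested genes. The 2 tested mesothelial genes were not called, and both were uneven within adipose tissue. Upk3b, a uroplakin of mesothelium, gave 5.34, 9.54 and 8.44 there against 6.62, 5.18 and 6.86 in MEFs, and Wt1, a transcription factor of the same layer, 4.92, 8.09 and 7.0 against 7.80, 6.53 and 7.03. Without adipose WT 1, the lowest adipose array for both genes, Upk3b passed at 2.77 (limma's adjusted p = 0.00258) and Wt1 did not at 0.42. The labels do not name the depot, and the part of mesothelial cells in this spread was not tested. The 1 named gene of skeletal muscle and the 3 of epididymis and testis were not detected on enough arrays to be tested. Of 3 tested genes of mammary or skin epithelium 2 were lower in adipose tissue, the keratin gene Krt18 at -2.21 ± 0.25 and the casein gene Csn3 at -1.40 ± 0.29, and none was higher. Over all settings tried Krt18 ranged from -2.48 to -0.39 and Csn3 from -1.68 to -0.13, so these sizes are not settled. The myelin gene Pmp22, the tested gene of peripheral nerve and also a gene of fibroblasts, was higher at 1.68 ± 0.22.

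**Figure D3:**
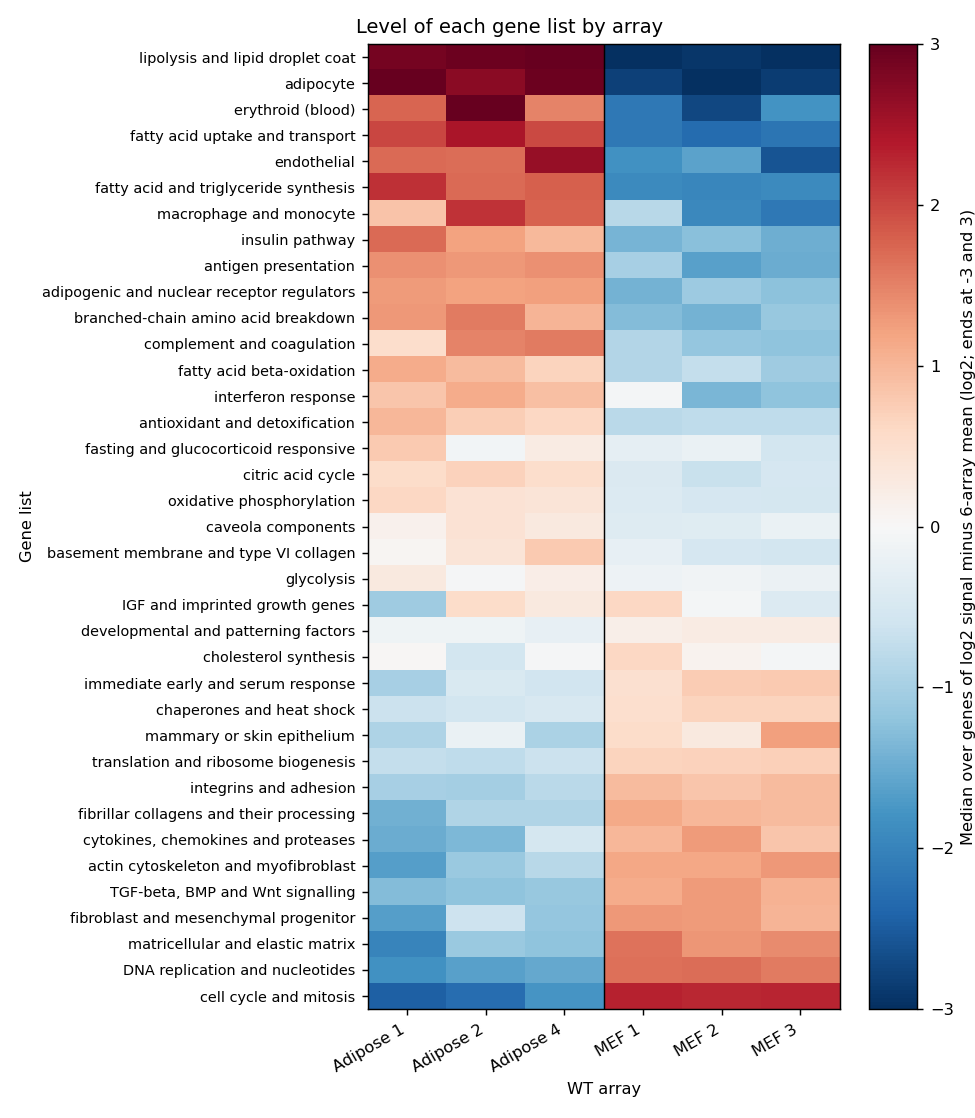
Level of each gene list with at least 3 tested genes on the 6 WT arrays, as the median over its genes of log2 signal minus the mean of 6 arrays (red above, blue below, colours end at -3 and 3). Most rows change sign at the line between the tissues. The rows of fasting and glucocorticoid genes, glycolysis, cholesterol synthesis and the IGF list depart from that pattern. Interferon response on MEF WT 1 (-0.06 against -1.38 and -1.20 on the other MEF arrays) keeps its sign but lies apart from its group. The same holds for macrophage genes on adipose WT 1 (0.86 against 2.17 and 1.76 on the other adipose arrays).

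The opposite side of the comparison was led by proliferation. All 10 tested genes of cell cycle and mitosis were lower in adipose tissue by at least 4-fold, with a median of -4.57. Plk1, the polo kinase of mitotic entry, had a log2 signal of 6.12, 5.58 and 6.86 in adipose tissue and 11.79, 12.01 and 11.79 in MEFs, a difference of -5.67 ± 0.30 (limma's adjusted p = 9.19e-07). Ccnb1, cyclin B1, gave 6.23, 5.88 and 6.26 against 11.52, 11.46 and 11.45 (-5.36 ± 0.16), Birc5, the survivin of the chromosomal passenger complex, 5.09, 5.67 and 6.73 against 11.40, 11.64 and 11.45 (-5.67 ± 0.36), and Cdc20, an activator of the anaphase-promoting complex, 4.78, 5.03 and 6.46 against 10.44, 10.72 and 10.71 (-5.20 ± 0.39). For Plk1, Birc5 and Cdc20 adipose WT 4 was the highest adipose array, and its values were still more than 3 log2 units below every MEF array. Cenpa, the centromeric histone, and Stmn1, the microtubule regulator stathmin, differed by -5.02 ± 0.32 and -4.11 ± 0.29. Mki67, a list member outside the naming rule and named after its values were seen, differed by -3.30 ± 0.37 by its brightest probe while a second probe at 0.03 was not called.

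DNA replication went with it, all 8 tested genes being lower by at least 4-fold (median -3.29). Rrm2, the regulated subunit of ribonucleotide reductase, gave 4.93, 5.63 and 5.83 in adipose tissue against 10.50, 10.62 and 10.59 in MEFs (-5.11 ± 0.23). Tk1, the thymidine kinase of S phase, gave 4.93, 5.31 and 5.81 against 9.91, 10.02 and 9.78 (-4.55 ± 0.23), and Pcna, the sliding clamp of DNA polymerase, 7.71, 7.72 and 7.20 against 11.28, 10.98 and 10.93 (-3.52 ± 0.20). Fen1, the flap endonuclease, Rfc5, a subunit of the clamp loader, and Cdc6, a factor of origin licensing, differed by -3.40 ± 0.22, -3.18 ± 0.15 and -3.17 ± 0.16. The 2 tested inhibitors or p53 targets were lower too, Cdkn1a, which encodes p21, at 8.72, 8.37 and 10.33 against 11.84, 12.26 and 12.62 (-3.10 ± 0.47) and Ccng1, cyclin G1, at -2.70 ± 0.20. Genes that drive the cycle and p21, which restrains it, were thus both lower in adipose tissue.

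Promoters of 4 of these genes are shown because the genes differ together and because their windows hold the CCAAT box, the letters bound by the factor NF-Y that is well known from mitotic promoters. Each sequence is the 250 bases before the RefSeq start (GRCm38.p6), 5′ to 3′, with CCAAT in capitals. They lie at chr13:100786487-100786736 (minus strand), chr7:122159185-122159434 (plus), chr4:118437344-118437593 (minus) and chr12:24708004-24708253 (plus).
Ccnb1: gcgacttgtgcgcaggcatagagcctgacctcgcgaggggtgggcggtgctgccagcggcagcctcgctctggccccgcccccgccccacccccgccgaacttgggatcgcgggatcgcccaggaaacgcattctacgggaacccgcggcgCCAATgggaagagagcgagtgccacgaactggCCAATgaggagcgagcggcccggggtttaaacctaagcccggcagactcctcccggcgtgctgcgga
Plk1: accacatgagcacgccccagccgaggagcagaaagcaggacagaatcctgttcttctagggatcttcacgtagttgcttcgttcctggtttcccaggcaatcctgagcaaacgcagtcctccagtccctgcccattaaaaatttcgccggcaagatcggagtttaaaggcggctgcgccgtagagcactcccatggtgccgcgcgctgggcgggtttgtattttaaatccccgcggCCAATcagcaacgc
Cdc20: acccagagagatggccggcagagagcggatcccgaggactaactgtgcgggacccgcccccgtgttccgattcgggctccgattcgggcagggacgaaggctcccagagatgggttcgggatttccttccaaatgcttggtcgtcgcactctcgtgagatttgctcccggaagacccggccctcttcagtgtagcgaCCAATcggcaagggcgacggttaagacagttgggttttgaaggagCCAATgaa
Rrm2: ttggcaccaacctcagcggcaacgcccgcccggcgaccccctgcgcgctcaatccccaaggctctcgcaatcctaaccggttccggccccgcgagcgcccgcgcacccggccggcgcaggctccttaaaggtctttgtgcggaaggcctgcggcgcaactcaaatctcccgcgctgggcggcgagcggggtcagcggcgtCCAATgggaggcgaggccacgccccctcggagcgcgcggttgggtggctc
In windows of 250 bases before to 50 after a start, CCAAT on either strand was found for 6 of 8 genes of the cell cycle list that have an entry and for 4 of 8 genes of the replication list. The share was 48.1% of genes at least 4-fold higher in MEFs, 45.0% of genes at least 4-fold higher in adipose tissue and 41.1% of all genes of the table. The E2F letters TTTGGCGC or TTTCGCGC were found for 14 of 372 MEF genes (3.8%), for 0 of 333 adipose genes and for 0.9% of all genes of the table. The CArG box, to which serum response factor binds, was found for 2.4%, 1.5% and 1.8%. None of these shares was tested, and a match is not evidence of binding.

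**Figure D4:**
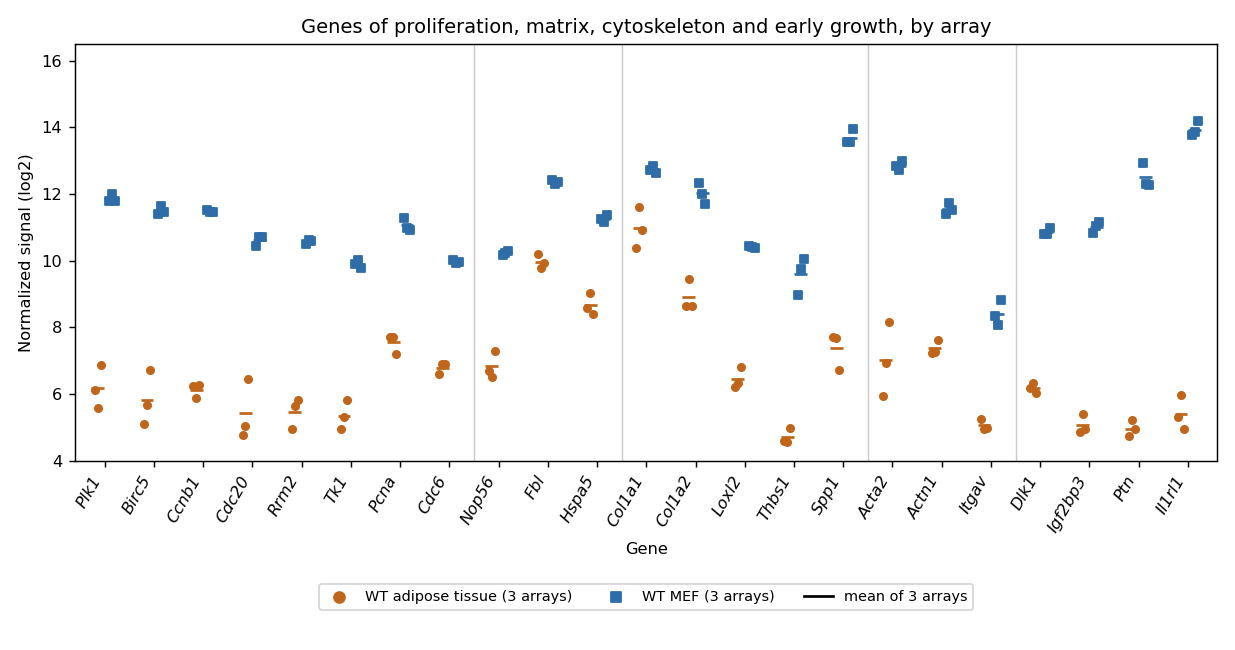
Normalized log2 signal of 23 genes on each WT adipose array (circles) and each WT MEF array (squares), with horizontal lines at the mean of 3 arrays and grey lines between proliferation, protein synthesis and folding, matrix, cytoskeleton and adhesion, and early growth genes. MEF arrays lie above adipose arrays for every gene shown. The spread of Acta2 over the adipose arrays, from 5.93 to 8.17, is wide beside that of the MEF arrays.

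Genes of protein synthesis and folding were lower in adipose tissue as well. Of 13 tested genes of translation and ribosome biogenesis 9 were lower and 4 were not called (median -1.44). The lower genes were led by nucleolar factors, Nop56 at 6.68, 6.52 and 7.29 against 10.18, 10.22 and 10.29 (-3.40 ± 0.21), Ncl, nucleolin, at -2.41 ± 0.17, Fbl, the methyltransferase fibrillarin, at -2.39 ± 0.16 and Nhp2, a protein of the H/ACA class of small nucleolar particles, at -2.29 ± 0.16. Of 11 tested chaperone genes 7 were lower and 4 were not called (median -1.31). Hspa5, the chaperone BiP of the endoplasmic reticulum, gave 8.58, 9.03 and 8.41 against 11.26, 11.15 and 11.37 (-2.59 ± 0.19). Hsp90aa1 and Hsp90ab1, the cytosolic HSP90 proteins, differed by -1.94 ± 0.18 and -1.32 ± 0.18, and Cct3, a subunit of the chaperonin that folds actin and tubulin, by -1.89 ± 0.15. With median-centred arrays these 2 lists had medians of -0.78 and -0.66 and 7 and 6 genes lower.

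Extracellular matrix was a further theme of MEFs. Of 10 tested genes of fibrillar collagens and their processing 8 were lower in adipose tissue and 2 were not called (median -1.97). Col1a1 and Col1a2, the chains of type I collagen, gave 10.38, 11.62 and 10.93 against 12.71, 12.84 and 12.64 (-1.76 ± 0.29) and 8.63, 9.45 and 8.63 against 12.33, 12.01 and 11.71 (-3.11 ± 0.27). Col3a1, of type III collagen, was not called at 10.75, 11.74 and 10.83 against 12.02, 11.06 and 11.13, and its difference of -0.30 ± 0.34 turned to 0.02 without MEF WT 1 and to 0.33 with median-centred arrays. The lysyl oxidases Loxl2 and Loxl1, which crosslink collagen, differed by -3.96 ± 0.19 and -2.87 ± 0.26, and Pcolce, an enhancer of procollagen processing, by -2.89 ± 0.21. Type I collagen and its crosslinking enzymes were thus lower in adipose tissue while type III collagen overlapped.

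Basement membrane genes did not share that direction. Of 6 tested genes of basement membrane and type VI collagen 3 were higher in adipose tissue, 1 was lower and 2 were not called. Col15a1, a collagen of the basement membrane zone around vessels and fat cells, gave 11.34, 11.59 and 11.81 against 6.86, 5.26 and 4.54 (6.02 ± 0.50), with MEF WT 1 highest among MEF arrays. Lamb2 and Lamb1, beta chains of laminin, had opposite directions at 1.44 ± 0.22 and -0.83 ± 0.28. Hspg2, which encodes perlecan, was higher at 0.76 ± 0.20, and the type VI collagen genes Col6a1 and Col6a3 were not called at 0.72 ± 0.29 and 0.35 ± 0.28, though without MEF WT 1 both passed at 0.95 and 0.67. Col6a1 also passed without adipose WT 1 (1.01). Lamb1 did not pass without adipose WT 1 (adjusted p = 0.0563), adipose WT 4 (0.0755) or MEF WT 3 (0.0945). It did not pass either with the neqc background (0.0607), with median-centred arrays (0.774), with no filter (0.0605) or in the fit of 12 arrays (0.0686).

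Matricellular and elastic matrix genes were lower for 9 of 10 tested, with a median of -2.83. Spp1, osteopontin, had a log2 signal of 7.72, 7.68 and 6.70 in adipose tissue and 13.55, 13.57 and 13.94 in MEFs (-6.32 ± 0.28). Thbs1, thrombospondin-1, was detected on no adipose array and was at least 15.3-fold lower, Ccn1, a matricellular target of serum, differed by -4.39 ± 0.18, Vcan, the proteoglycan versican, by -3.82 ± 0.28 and Mgp, matrix Gla protein, by -3.05 ± 0.28. Dcn, the small proteoglycan decorin, was the exception, at 13.36, 14.13 and 13.61 in adipose tissue against 11.66, 10.11 and 9.76 in MEFs (3.19 ± 0.45). MEF WT 1 was the highest MEF array for it. Dcn was likewise the exception among 6 tested fibroblast markers, of which 4 were lower in adipose tissue, among them S100a4 at -4.05 ± 0.42 and Prrx1, a mesenchymal homeobox gene, at least 9.14-fold lower.

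Cytoskeleton and adhesion genes followed the matrix. Of 8 tested genes of actin and the myofibroblast 7 were lower in adipose tissue and 1 was not called (median -2.40). Acta2, smooth muscle actin, gave 5.93, 6.93 and 8.17 in adipose tissue and 12.85, 12.71 and 13 in MEFs, a difference of -5.85 ± 0.47 that was -6.43 without adipose WT 4. Actn1, an actin crosslinker, gave 7.22, 7.27 and 7.62 against 11.40, 11.74 and 11.53 (-4.18 ± 0.18), and Cald1, caldesmon, Zyx, zyxin of focal adhesions, and Tpm4, a tropomyosin, differed by -3.73 ± 0.26, -3.04 ± 0.21 and -1.77 ± 0.23. Mylk, the myosin light chain kinase and the other tested smooth muscle marker beside Acta2, was higher in adipose tissue at 2.13 ± 0.33, so these 2 markers disagree. Of 9 tested genes of integrins and adhesion 7 were lower, 1 was higher and 1 was not called. Itgav, the alpha V chain, was detected on no adipose array and was at least 6.72-fold lower, as was Ncam1 (at least 3.01-fold), whereas Itga6, a laminin-binding chain, was higher at 1.27 ± 0.17.

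Secreted signals and immediate early genes were mostly on the MEF side. Of 8 tested genes of TGF-beta, BMP and Wnt signalling 8 were lower in adipose tissue (median -2.41). With the neqc background 7 were lower (median -1.03), and with median-centred arrays 5 were (median -1.86). Tgfb2 and Tgfb3, ligands of the TGF-beta family, differed by -3.71 ± 0.26 and -2.45 ± 0.23, Fst, the activin trap follistatin, by -3.33 ± 0.23 and the ligand Wnt5a by -2.76 ± 0.20. Of 5 tested genes of cytokines, chemokines and proteases 3 were lower, 1 higher and 1 not called. Ccl2, the monocyte chemoattractant, gave 4.81, 5.39 and 5.76 against 10.86, 10.58 and 10.13 (-5.21 ± 0.28), the neutrophil chemokine Cxcl1 differed by -2.08 ± 0.31, and Ptgs2, the inducible cyclooxygenase, was at least 16-fold lower. Timp3, an inhibitor of metalloproteinases, was higher at 0.59 ± 0.17 by its brightest probe and lower at -2.03 by a second, and the first did not pass without MEF WT 2 (adjusted p = 0.051). Of 6 tested immediate early genes 4 were lower, 1 higher and 1 not called, among them Egr2 at -3.05 ± 0.16, Fosl2 at -2.47 ± 0.29 and Junb at -1.37 ± 0.25. Klf4 was lower by its brightest probe at -1.08 ± 0.25 and higher by a second at 0.89. Junb and Klf4 were not called with median-centred arrays (-0.64 and -0.42).

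Lists of embryonic growth were mixed, and their shares of lower genes lay near the 42.8% of all named genes. Of 9 tested genes of the IGF and imprinted list 2 were higher in adipose tissue, 4 were lower and 3 were not called, and the median of 0.22 turned to -0.31 without adipose WT 2 and to -0.51 without adipose WT 4. Besides Dlk1 and Grb10 the lower genes were Peg3, a paternally expressed zinc finger gene, at -1.25 ± 0.26 (not called with median-centred arrays) and Igfbp3 at -1.72 ± 0.37 (not called with the neqc background), and Igfbp4, another IGF binding protein, was higher at 1.13 ± 0.18. Of 8 tested developmental factors 3 were lower, 1 was higher and 4 were not called. Sox11, a factor of embryonic progenitors, gave 5.51, 5.23 and 5.82 against 9.33, 9.85 and 9.79 (-4.14 ± 0.22) and Sox4 differed by -1.64 ± 0.26, while Zeb2 was higher at 1.09 ± 0.22. The median of that list, -0.22, turned to 0.39 with median-centred arrays.

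The largest MEF genes belonged to few of the lists. Il1rl1, the receptor for interleukin-33, also known as a serum- and growth-induced gene of fibroblasts (ST2), had a log2 signal of 5.30, 5.95 and 4.95 in adipose tissue, detected on 1 of 3 arrays, and 13.76, 13.85 and 14.19 in MEFs, the largest difference in this direction among named genes at -8.53 ± 0.26 (limma's adjusted p = 6.83e-08). Ptn, the growth factor pleiotrophin, gave 4.72, 5.22 and 4.93 against 12.93, 12.30 and 12.28 and was at least 115-fold lower. The orphan receptor gene Gpr176 was at least 76.9-fold lower, the imprinted amino acid transporter gene Slc38a4 at least 40.6-fold, and Igf2bp3, an oncofetal RNA-binding protein, at least 40.7-fold. No adipose array detected any of these 4. Dimmer probes gave smaller differences for Slc38a4, at -2.75, and for Igf2bp3, at -5.54 and -2.33. Slit2, a guidance ligand, was at least 29.2-fold lower. Ddah1, which breaks down methylated arginine, the trophoblast glycoprotein gene Tpbg and the nucleotidase gene Nt5dc2 differed by -5.76 ± 0.20, -5.44 ± 0.36 and -5.43 ± 0.18.

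The same comparison was made on the 6 arrays of Cav1 KO adipose tissue (collected in the same way) and Cav1 KO MEFs, which share no array with the WT comparison but lie on the same 2 slides. Of 16437 probes tested there 11482 (69.9%) were called. Of the 11604 probes called in WT, 9582 (82.6%) were called in KO in the same direction and 24 in the opposite direction. Of 198 genes of the naming rule called in WT and tested in KO, 184 were called in KO in the same direction. In the opposite direction 0 were called, and 14 were not called. Car3 differed by 9.97 ± 0.23 in KO, Plin4 by 10.05 ± 0.22, Plk1 by -5.77 ± 0.18 and Ccnb1 by -5.68 ± 0.21. The 14 genes not called in KO included Col1a1 at -0.40 ± 0.44 (limma's adjusted p = 0.438), while Col1a2 passed at -1.55 ± 0.47. They also included Acat2 at 0.44 ± 0.24, Cycs at 0.39 ± 0.25, Nsdhl at 0.41 ± 0.17, Pacsin3 at 0.55 ± 0.26, Eno3 at -0.90 ± 0.54 and Lamb1 at -0.62 ± 0.40. For Cav1, whose raw signal on the KO arrays was 1940, 3167 and 2297 in adipose tissue and 788.7, 1163 and 1690 in MEFs, the KO difference was -0.09 ± 0.29 (limma's adjusted p = 0.795), and the test of the change between genotypes did not pass for it (-0.91 ± 0.36, adjusted p = 0.321).

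A change of the tissue difference with genotype was tested in a fit of 12 arrays, and 228 of 18614 probes (1.22%) passed. Of the 220 genes that meet the naming rule 9 did. The other genes with a name were not counted here. Elovl6 had a tissue difference of 4.06 ± 0.20 in WT and 1.20 ± 0.26 in KO, and Dlk1 one of -4.68 ± 0.16 in WT and -2.35 ± 0.20 in KO. For Mgp the MEF excess was called in WT and no difference was called in KO (limma's adjusted p = 0.0777), with values from -3.05 ± 0.28 in WT to 1.02 ± 0.46 in KO. Igfbp4 went from 1.13 to 3.37, Cox7a1 from 4.23 to 2.37, Vcam1, an adhesion receptor for leukocytes, from -1.83 to -0.32, Fst from -3.33 to -1.27, Slc38a4 from -6.35 to -5.08 and Ddah1 from -5.76 to -3.03. Cox7a1 and Slc38a4 were not detected in the dimmer WT tissue, so their fitted values are not sizes of a fold.

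**Figure D5:**
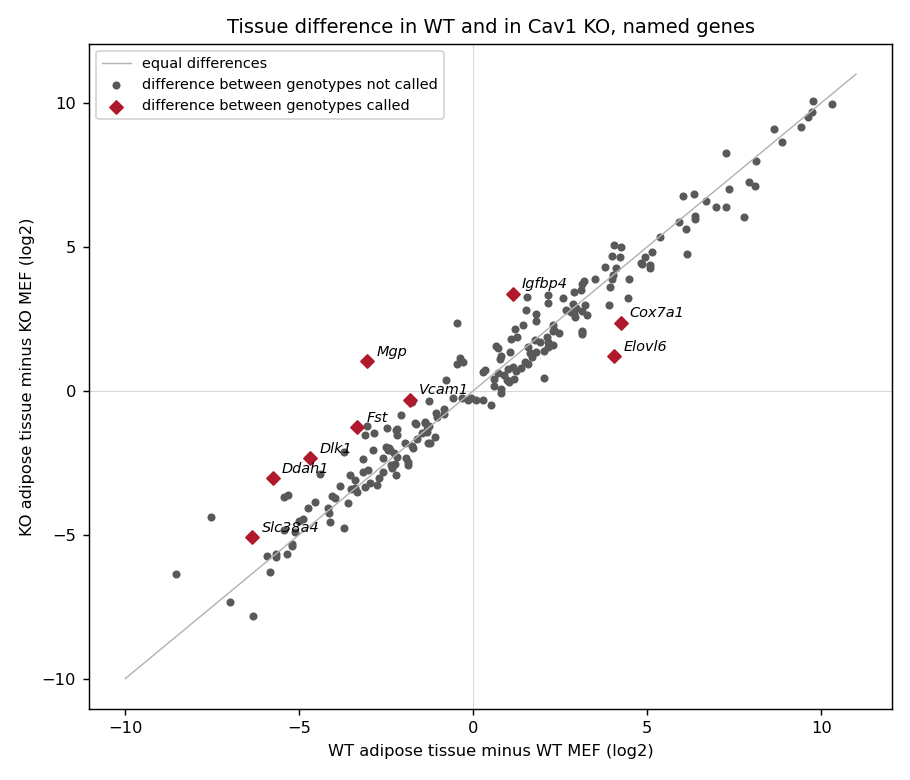
Difference between adipose tissue and MEFs (log2) in WT, on the horizontal axis, and in Cav1 KO, on the vertical axis. Shown are 216 genes of the naming rule tested in both. Red diamonds are the 9 genes whose difference changed with genotype by the 12-array test, the line marks equal differences, and Mgp lies on opposite sides of 0 in the 2 genotypes.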

How the data were processed

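The values of 6 of 18 Illumina Mouse-6 V1 arrays were used, 3 of WT adipose tissue and 3 of WT MEFs, and for 1 check the 6 matching Cav1 KO arrays. Each deposited intensity is the average signal of a probe's beads, which per the file headers left BeadStudio without normalization. The authors also deposited detection p-values, for each probe the share of negative controls at or above its signal. Of tools, the submitters' processing notes list limma, affy, RMA and lumi but not what each did. The authors' own normalized intensities were not used, because they are scaled within each tissue. A deposited table gives the slide and position of each array.

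Of 45992 probes 60 controls were left out. Gene names rest on numbers inside probe names read as NCBI gene IDs and looked up in a RefSeq table of the mouse assembly GRCm38.p6 (9807 probes), on RIKEN clones (978), on RefSeq accessions (9) and on mitochondrial gene names in the files (13), and 35125 probes have no name. Of 11868 such numbers 82.6% were mouse gene IDs, against 41.1% to 46.2% for numbers shifted by 5 other steps. A name can still be wrong. The brightest probe stands for a gene. Promoter sequences are from RefSeq (GRCm38.p6) and were matched by gene ID.

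In R 4.3.3 with limma 3.58.1, normexp corrected each array with the median and the median absolute deviation of the negative controls implied by the detection p-values. An offset of 16 was added, and the 6 arrays were quantile normalized together and put on the log2 scale. Tested were probes detected (p under 0.05) on 3 or more of the 6 arrays, with lmFit and eBayes, two-sided; they are called higher or lower in adipose tissue at a Benjamini-Hochberg adjusted p under 0.05. All adjusted p-values are limma's. Differences are adipose tissue minus MEF, with the standard error (SE). Where a probe was detected on no array of a group, the fold is a lower bound, from the brighter group's mean minus the mean over the dim arrays of the lowest signal detected on each, or of the probe's own value where that is higher. Such a bound holds only under these settings. Under others the fitted log2 differences of some of these genes were smaller. Examples are lowest values of 0.11 for Zbtb16, 0.25 for F13a1, 0.26 for C6, 0.4 for Rxra and 0.97 for Cd36. Among genes lower in adipose tissue, Ncam1 came to -0.24 and Igf1r to -0.3. The script was tested on simulated data.

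Genes were grouped in 34 pathway and 15 marker lists. Named are Cav1, the caveola genes, the 15 largest differences in each direction, and up to 6 tested members of each list with the largest differences. Not all genes that meet this rule are described, and some are not reported here. The lists, the rule and the comparison were chosen with earlier results of these data known. Whether same-numbered arrays pair was checked by the correlation of their deviations from the group means, which was -0.09 and -0.17 for numbers 1 and 2, so they share only a number. Alternatives are in the closing section.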

Additional observations from a re-analysis of the deposited data

Results flagged for a closer look

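For 9 genes of the naming rule the difference between adipose tissue and MEFs was not the same in WT and Cav1 KO mice. The test was limma's over 12 arrays. The values below are the KO difference minus the WT difference, with SE and adjusted p. For Elovl6 this was -2.81 ± 0.35 (adjusted p = 0.00209), so the adipose excess was smaller in KO, and for Cox7a1 it was -1.84 ± 0.36 (adjusted p = 0.0265). For Dlk1 it was 2.27 ± 0.25 (adjusted p = 0.000966), for Ddah1 2.64 ± 0.32 (adjusted p = 0.00186), for Fst 2.01 ± 0.43 (adjusted p = 0.042), for Vcam1 1.49 ± 0.21 (adjusted p = 0.00484) and for Slc38a4 1.26 ± 0.26 (adjusted p = 0.0409), so the MEF excess of these genes was smaller in KO. Igfbp4, higher in adipose tissue in both genotypes, gave 2.29 ± 0.33 (adjusted p = 0.0055). Mgp gave 4.05 ± 0.61 (adjusted p = 0.00639), with a MEF excess in WT and no called difference in KO (adjusted p = 0.0777). Groups of 3 arrays are too small for the check of outlying samples that is used for larger groups.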

How the results depend on the processing

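Over 18 alternatives 9804 to 12977 probes were called, apart from 7182 when a probe had to be detected on all 6 arrays (2938 higher, and 632 and 811 higher and lower by at least 4-fold) and 5038 when limma's treat tested against a 2-fold difference (2556 higher, 2482 lower). No probe called under both settings changed sign. The size of differences depended on the background. With neqc 713 probes were higher and 606 lower by at least 4-fold, and without background correction 787 and 579. With median-centred arrays 3390 probes were lower, and 2730 and 823 were higher and lower by at least 4-fold. With the replicate block 9804 probes were called, and the IGF list had a median of -0.65. Of the 184 genes named above, Cav1 (adjusted p = 0.0584) and 9 others did not pass in that fit (Zbtb16, Lamb1, Hspg2, Oas1a, Timp3, Klf4, Nr1d2, Clock and Lyz2). Same-numbered arrays share only a number. Leaving out each array in turn gave 10823 to 11207 calls and IGF list medians of -0.51 to 0.86. Of 37 list medians those of cholesterol synthesis (0.24) and developmental factors (0.39) turned with median-centred arrays. Of the 184 genes named above 144 kept call and direction wherever they were tested. Col3a1 (0.33) and Wt1 (0.23) turned with median-centred arrays, and over left-out arrays they ranged from -0.61 to 0.02 and from -1.10 to 0.42. The cause of these changes was not tested. Slide and tissue coincide, and dim probes are limited by background.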

Other observations

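Immunoglobulin probes were divided. Of 26 tested probes named for immunoglobulin segments 10 were higher in adipose tissue, 3 were lower and 13 were not called by limma, with a median difference of -0.06, and the share of higher probes was near the 35.3% of all probes. The kappa constant probe Igkc gave 9.45, 10.92 and 10.94 on the adipose arrays and 4.70, 4.85 and 4.66 on the MEF arrays (adjusted p = 2.74e-06), and the mu constant probe IGHM gave 6.67, 9.57 and 10.90 against 4.56, 4.57 and 4.53. The lambda variable gene Iglv1 gave 6.39, 8.0 and 7.52 against 5.28, 5.01 and 4.85. Adipose WT 1 was the lowest adipose array for all 3. Of the 26 probes 9 were detected on all 3 adipose arrays and on no MEF array, as were 2081 of all 15936 probes tested.

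Arrays differed in how many probes departed from their group. On MEF WT 1, 193 of 15936 tested probes were at least 2-fold above both other MEF arrays, against 48 on MEF WT 2 and 29 on MEF WT 3. On adipose WT 1, 165 probes were at least 2-fold below both other adipose arrays, against 23 on adipose WT 2 and 69 on adipose WT 4.

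Of 55 further probes for 46 of the genes on the lists, 13 probes of 11 genes differed from the brightest probe in call or sign, and 2 of them were called in the opposite direction.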
